A study of Homo sapiens with 16 samples.

Results

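H9 human embryonic stem cells after 5 days of activin treatment were set against the same line left undifferentiated (day 0). The samples were chosen by their labels alone: 4 biological samples of day 5 and 4 of day 0, on 10 of the 16 arrays and making up 8 of the 14 biological samples of the series. The other 6 samples, 3 each of day 1 and day 3, entered the estimate of spread and gave reference levels. Per the labels, day 0 cells at passages 40 to 50 grew on mouse embryonic feeder cells or on Matrigel, in feeder-conditioned medium with serum replacement and basic FGF at 8 ng/ml. Day 5 cells received activin A at 100 ng/ml in RPMI medium while serum was raised from 0% to 0.2% and then 2%. Activin, medium and serum changed together between the groups, so their parts cannot be told apart. All samples come from 1 cell line and so share a genotype. The labels call the samples biological replicates without naming separate cultures, and p-values therefore measure only the spread between these samples. In such bulk RNA, fewer cells expressing a gene and less RNA per cell cannot be told apart.

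Definitive endoderm is the germ layer that gives rise to the gut tube, liver, pancreas and lung. Activin A acts through the receptors of nodal, whose signal passes through SMAD2 and SMAD3, and in culture it takes stem cells through a stage like the primitive streak, marked by EOMES, MIXL1 and GSC, to cells with SOX17, FOXA2 and the surface receptor CXCR4. Embryonic stem cells hold their state with a network of transcription factors that includes PRDM14, and they line up as an epithelium held together by E-cadherin.

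The 10 arrays had near-equal medians (245.1 to 246.3 intensity units over all 16), and an array has no read depth, so the number of arrays limits the precision. Levels below are log2(intensity + 1) of a gene's own probe set, a change is the day 5 mean minus the day 0 mean on that scale ± its standard error (SE), and levels of different genes are not compared. The pair of arrays of replicate 4 was averaged in each group. Its arrays differed by a median of 0.17 at day 0 and 0.22 at day 5. Samples of day 5 were more spread than those of day 0, with a median standard deviation per probe set of 0.55 against 0.33. Day 5 replicate 2 lay farthest from its group's median for 11028 of the 18495 probe sets (2228 to 2852 for each of the other day 5 samples). Day 3 replicate 2, which enters the estimate of spread, had the lowest median correlation with its group of all 14 samples (0.83, against 0.86 for day 5 replicate 2 and at least 0.90 for the rest). Counts of calls are therefore also given without these samples where they move by over 1.5 times.

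A probe set is called changed where limma's moderated test gave a Benjamini-Hochberg adjusted p under 0.05. Of 18495 probe sets, 1009 (5.46%) were called, of which 474 (2.56%) rose and 535 (2.89%) fell. The counts given below for gene lists are to be read beside these shares. The 41 lists were chosen with earlier results of these data known, so their counts are no independent support for a cell type. The rises were larger than the falls. Of the called probe sets, 244 rose and 98 fell at least 4-fold, and 51 rose at least 16-fold against 1 that fell as far. The median size was 2.04 for those that rose and -1.39 for those that fell, while the median over all probe sets was -0.02. The groups did not overlap for 2707 probe sets (14.6%), 1122 of them higher and 1585 lower at day 5, and 8 called probe sets had overlapping groups. Leaving out day 0 replicate 1, day 0 replicate 2, day 0 replicate 4 or day 5 replicate 1 lowered the count of calls to 549, 554, 672 and 639, and leaving out day 3 replicate 2 raised it to 1614. A stricter group of 484 probe sets (2.62%), 263 that rose and 221 that fell, was called in all 10 of the fits that used every sample, left out 1 of the 8 compared samples in turn, or left out day 3 replicate 2. These are referred to as steadily called, and most genes described are among them; the text says where a gene is not. At the other end, 6094 probe sets (32.9%) had a 95% confidence interval of the change within -1 to 1 and are referred to as stable.

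All 5 endoderm markers rose, and none of their day 5 samples fell within the day 0 range. SOX17, the transcription factor that specifies endoderm, was at 6.45, 6.19, 6.86 and 5.64 in day 0 replicates 1 to 4 and at 11.17, 10.25, 11.74 and 11.49 in those of day 5. CXCR4, the chemokine receptor by which endoderm is sorted, went from 7.73, 7.16, 9.60 and 7.98 to 13.01, 13.25, 13.62 and 13.34. FOXA2, a pioneer factor of endoderm and its derivatives, was at 7.10, 6.56, 7.32 and 6.72 before and 9.50, 9.37, 10.54 and 10.28 after. For each of these genes the highest day 0 sample was replicate 3, and for SOX17 and FOXA2 the lowest day 5 sample was replicate 2. GRP, a bombesin-like peptide hormone, was near the bottom of the scale in undifferentiated cells, at 3.16, 3.63, 3.42 and 2.97, and stood at 9.57, 10.85, 8.42 and 9.56 at day 5. LGR5, a receptor for R-spondins, was at 4.58, 4.72, 5.02 and 4.42 at day 0 and at 10.38, 9.32, 11.22 and 11.03 at day 5. Day 5 replicate 2 was thus the highest day 5 sample for GRP and the lowest for LGR5. The changes were 4.88 ± 1.00 for SOX17 (limma adjusted p = 0.012), 5.19 ± 0.94 for CXCR4 (adjusted p = 0.00598) and 3.00 ± 0.50 for FOXA2 (adjusted p = 0.00381). GRP changed by 6.31 ± 0.72 (adjusted p = 0.000611) and LGR5 by 5.80 ± 0.74 (adjusted p = 0.000796). These standard errors also take in the spread of the day 1 and day 3 samples, day 3 replicate 2 among them. Over the settings tried as alternatives the limma adjusted p of SOX17 ranged from 9.8e-06 to 0.041. In linear terms SOX17 rose 29.4-fold, CXCR4 36.5-fold and FOXA2 7.99-fold, and all 5 genes were steadily called. No linear fold is given for GRP and LGR5, whose probe sets were dim at day 0. All day 0 samples of SOX17 and FOXA2, and some of CXCR4, were also below the median of all values, 7.95. How background enters the folds given was not tested. In these values the markers matched the label of each day 5 sample. They were chosen with earlier results of these data known, so the match is no independent support for the label.

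**Figure D1:**
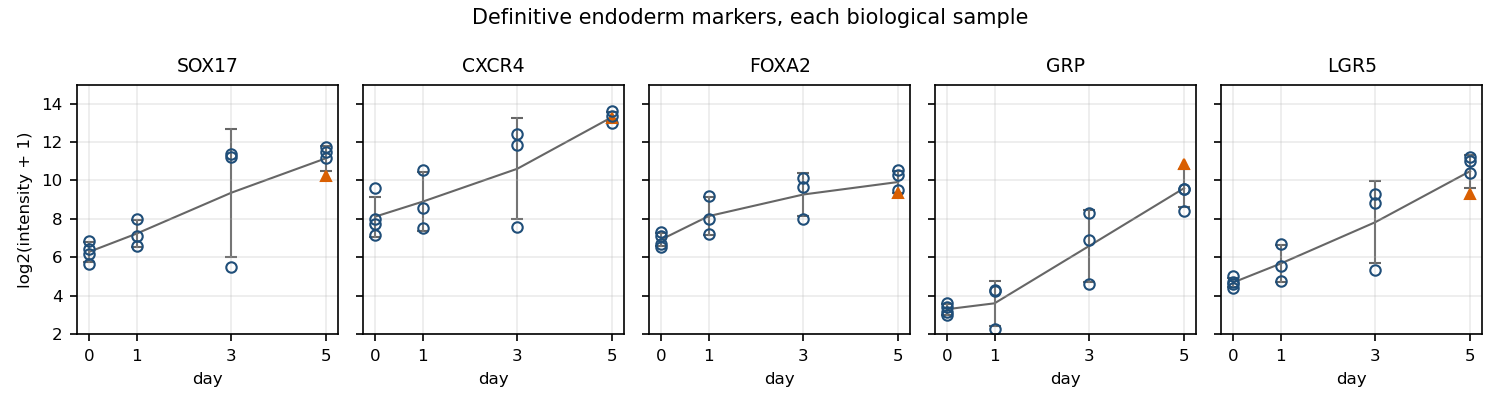
Log2(intensity + 1) of SOX17, CXCR4, FOXA2, GRP and LGR5 (vertical axis) by day (horizontal axis), with 1 symbol per biological sample, a filled triangle for day 5 replicate 2, and a line through the group means with bars of 1 standard deviation. At day 5 all 4 samples of each gene lie above the day 0 samples, while at day 3 the lowest sample of each gene, replicate 2, lies within the range of the day 0 and day 1 samples for SOX17, CXCR4, FOXA2 and LGR5.

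The bases before the starts of 6 genes are shown because these genes move far in this comparison and each holds a match to 1 of 5 short motifs; they were chosen after the matches were seen. The sequences are the 250 bases before the first listed start of each gene (RefSeq, GRCh38.p14), read 5′ to 3′ on the gene's strand, with matches on either strand in capitals. All motifs were searched on both strands. The TATA motif was spelled TATAAA. The motif bound by GATA factors was spelled AGATAA. For forkhead factors the letters were TGTTTAC. The core of the T-box site was taken as AGGTGT. The octamer, which POU factors bind, was ATGCAAAT. GRP lies at chr18:59219908-59220157 (plus strand), DIO3 at chr14:101561245-101561494 (plus strand), CXCR4 at chr2:136118150-136118399 (minus strand), APOA2 at chr1:161223629-161223878 (minus strand), FRZB at chr2:182866638-182866887 (minus strand) and SFRP2 at chr4:153789084-153789333 (minus strand). GRP, DIO3 and CXCR4 hold a TATA motif that begins -29, -32 and -32 bases from the start, in CXCR4 as a pair of overlapping matches on both strands. APOA2 holds a forkhead match at -42, FRZB a GATA match at -215, and SFRP2, the gene among these that fell, an octamer at -35.
GRP: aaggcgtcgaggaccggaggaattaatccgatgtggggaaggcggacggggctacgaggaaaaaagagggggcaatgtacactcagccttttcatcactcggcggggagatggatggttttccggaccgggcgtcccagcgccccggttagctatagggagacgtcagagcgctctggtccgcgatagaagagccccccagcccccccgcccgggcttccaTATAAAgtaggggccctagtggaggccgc
DIO3: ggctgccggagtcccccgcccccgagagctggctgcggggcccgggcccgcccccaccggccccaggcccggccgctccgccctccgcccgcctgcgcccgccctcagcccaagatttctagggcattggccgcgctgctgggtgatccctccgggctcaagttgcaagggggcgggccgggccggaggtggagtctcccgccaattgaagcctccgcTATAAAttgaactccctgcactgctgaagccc
CXCR4: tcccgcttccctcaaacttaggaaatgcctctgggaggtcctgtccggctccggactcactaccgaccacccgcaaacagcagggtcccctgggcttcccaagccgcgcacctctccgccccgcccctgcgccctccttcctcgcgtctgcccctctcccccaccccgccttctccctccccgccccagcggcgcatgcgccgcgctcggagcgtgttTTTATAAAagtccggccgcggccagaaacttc
APOA2: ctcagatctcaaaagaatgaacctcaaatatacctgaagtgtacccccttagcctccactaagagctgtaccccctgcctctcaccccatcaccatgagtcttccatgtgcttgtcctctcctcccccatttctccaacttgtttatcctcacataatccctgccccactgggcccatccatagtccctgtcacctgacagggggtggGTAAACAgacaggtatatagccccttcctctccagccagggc
FRZB: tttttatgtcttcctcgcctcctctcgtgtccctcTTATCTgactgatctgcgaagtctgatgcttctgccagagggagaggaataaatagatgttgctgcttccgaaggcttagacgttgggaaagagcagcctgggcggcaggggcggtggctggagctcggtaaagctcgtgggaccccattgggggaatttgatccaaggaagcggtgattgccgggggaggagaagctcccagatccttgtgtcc
SFRP2: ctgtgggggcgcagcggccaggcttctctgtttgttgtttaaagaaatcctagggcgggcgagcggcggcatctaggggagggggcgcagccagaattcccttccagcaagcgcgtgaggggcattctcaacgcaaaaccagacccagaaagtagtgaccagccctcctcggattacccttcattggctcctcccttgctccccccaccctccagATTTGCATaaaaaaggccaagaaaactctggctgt

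Among 11418 measured genes with a matched promoter, 8.19% held a TATA motif in this window, against 9.88% of the 162 steadily called genes that rose and 3.47% of the 144 that fell. A GATA match was found in 6.66% of all, 8.64% of those that rose and 2.78% of those that fell, and a forkhead match in 2.07%, 2.47% and 2.78%. The T-box core was in 8.44%, 6.79% and 6.25%, and the octamer in 1.48%, none and 3.47% (5 of 144). Among all called genes, 296 that rose and 360 that fell, the octamer was in 1.01% and 2.22%. In these larger groups the TATA motif was in 11.1% and 5.0% and the GATA motif in 8.78% and 4.72%. The T-box core was there in 7.77% and 8.33% and the forkhead motif in 1.69% and 2.22%. These shares describe letters in a window and were not tested. The median GC content of the windows was 63.2% over all, 63.4% for the steadily called genes that rose and 66.2% for those that fell.

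Of 21 measured endoderm transcription factors 13 rose and none fell, with a median change of 3.00, and 12 were steadily called. Over all probe sets 2.56% rose, but the list was chosen with earlier results of these data known, so its share is no independent support for endoderm. Those 12 were SOX17, FOXA2, GATA4, GATA6, GATA3, LHX1, HHEX, PRDM1 and FOXQ1, and EOMES, MIXL1 and GSC, which also mark the primitive streak. FOXA1, the remaining one, rose by 1.09 ± 0.29 (limma adjusted p = 0.0438) and lost its call without any 1 of the compared samples other than day 0 replicate 3, with an adjusted p of up to 0.135. Of these 13, GATA4, MIXL1, LHX1, HHEX, FOXQ1 and FOXA1 are named with their values known. PRDM1, a repressor known from germ cell and endoderm development, was at 5.38, 5.65, 5.50 and 6.48 at day 0 and at 10.28, 9.36, 10.61 and 10.42 at day 5, a change of 4.42 ± 0.83 (limma adjusted p = 0.00774). HHEX, a homeobox gene of anterior endoderm and the liver bud, went from 7.09, 6.59, 6.45 and 5.49 to 9.79, 10.38, 9.75 and 9.96 (3.57 ± 0.57, adjusted p = 0.00286). GATA4 was at 5.83, 5.57, 6.36 and 5.68 and then between 9.51 and 11.11 (4.55 ± 0.89, adjusted p = 0.0095). For PRDM1, HHEX and GATA4 the lowest day 5 sample lay above the highest day 0 sample. GATA3, known from trophoblast as well as endoderm, moved less, from between 6.53 and 7.29 to between 8.17 and 9.68 (2.06 ± 0.37, adjusted p = 0.00611). FOXA3, the third FOXA factor, active later in liver and gut and named with its values known, was at 8.73 to 9.67 and 9.27 to 10.28 in the respective groups and did not pass the test (0.54 ± 0.31, adjusted p = 0.424).

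The day 1 means of these transcription factors lay at differing distances from day 5. Timing was not compared between genes by a test. GSC, EOMES and MIXL1, genes of the primitive streak, had means of 10.51, 12.21 and 12.50 already at day 1, and their day 5 level differed from it by 0.86, -0.26 and -0.17 (limma adjusted p of 0.83, 0.96 and 0.97). GATA3 and PRDM1 had day 1 means of 6.70 and 6.37, close to day 0, and stood 2.29 and 3.80 higher at day 5 than at day 1 (adjusted p = 0.0085 and 0.036). GATA4 likewise rose by 4.32 from day 1 (adjusted p = 0.027). For SOX17 the difference of 3.93 was larger than that of PRDM1 but did not pass (adjusted p = 0.07). Over all probe sets 616 (3.33%) were called between day 5 and day 1, and 1130 without day 3 replicate 2.

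Of 27 measured surface and secreted proteins of endoderm 19 rose and none fell, with a median change of 3.15. In this list 24 were higher in every day 5 sample than in any of day 0. Of all 18495 probe sets 2.56% rose and 1122 were higher in that way. This list, too, was chosen with earlier results of these data known. The rises numbered 15 to 24 over the fits that left out 1 sample, with 24 without day 3 replicate 2. The 15 steadily called members included the receptors CXCR4, LGR5, LIFR and ACKR3. ACKR3, an atypical receptor that shares the ligand CXCL12 with CXCR4, was at 6.36, 5.52, 7.38 and 5.99 at day 0 and at 11.29, 11.69, 11.66 and 11.89 at day 5 (5.32 ± 0.75, limma adjusted p = 0.00128). LIFR, the receptor of leukaemia inhibitory factor, went from 8.39, 8.48, 8.42 and 8.77 to 10.78, 10.47, 11.77 and 11.71 (2.66 ± 0.45, adjusted p = 0.00382). Among enzymes, HAS2, which makes hyaluronan, rose from between 8.57 and 9.59 to between 12.37 and 13.37 (3.93 ± 0.55, adjusted p = 0.00124). MANEA, a mannosidase of the Golgi, rose from between 7.30 and 8.02 to between 11.11 and 11.48 (3.70 ± 0.45, adjusted p = 0.000709). The calcium-binding protein S100A14 rose by 3.64 ± 0.52 (adjusted p = 0.00138), EPSTI1 by 4.80 ± 0.62 (adjusted p = 0.000802) and the epithelial trafficking GTPase RAB17 by 2.75 ± 0.30 (adjusted p = 0.000512). ACKR3, LIFR, HAS2, MANEA, S100A14, EPSTI1 and RAB17 were chosen after their values were seen. CER1, a secreted nodal and BMP antagonist, was already at 10.80 to 12.47 at day 0 and reached 14.47 to 14.66 (2.98 ± 0.62, adjusted p = 0.0131). Its call was lost without day 0 replicate 1 or day 0 replicate 2, with an adjusted p of up to 0.0513.

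Of 21 measured genes of the primitive streak and early mesoderm 8 rose and 1 fell, with a median of 1.26, and 7 rises and the fall were steadily called. FGF17, an FGF of the streak and the mid-hindbrain, was at 5.66, 5.17, 7.87 and 6.29 and then at 12.85, 12.24, 13.00 and 13.12 (6.56 ± 1.32, limma adjusted p = 0.0108). FGF4, the member that fell, is an FGF of pluripotent cells and the streak. It was at 6.72, 6.98, 6.94 and 5.89 at day 0 and at 5.38, 4.42, 3.50 and 3.20 at day 5 (-2.51 ± 0.46, adjusted p = 0.00681). At day 1 its mean was 10.18, above both groups, and the day 5 level was lower than that by a change of -6.05 (adjusted p = 0.00017).

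Several genes of the nodal and activin pathway itself rose. Of 24 measured members 7 rose and none fell, although the list's median change was only 0.08, and 5 were steadily called. Among ligands, NODAL went from 10.35, 9.93, 11.04 and 10.39 to 11.79, 11.92, 11.54 and 11.53 (1.27 ± 0.25, limma adjusted p = 0.0103). GDF3, a TGF-beta family ligand of stem cells, went from 8.90, 9.47, 10.27 and 8.70 to 11.58, 11.53, 11.39 and 11.16 (2.08 ± 0.36, adjusted p = 0.00441). At day 1 the means of NODAL and GDF3 were 11.81 and 11.49, from which day 5 differed by -0.11 and -0.07. Of the transducers, SMAD2 rose by 0.93 ± 0.19 (adjusted p = 0.0108), from between 10.88 and 11.24 to between 11.92 and 12.14. NODAL and SMAD2 were chosen after their values were seen. The extracellular activin inhibitor FST, follistatin, rose from 9.19, 8.78, 9.26 and 8.74 to 11.78, 10.88, 12.46 and 12.14 (2.83 ± 0.40, adjusted p = 0.00131). DACT2, an intracellular protein that limits nodal signalling, rose by 2.32 ± 0.48 (adjusted p = 0.0128). The repressor TGIF1 was stable (-0.20, 95% confidence interval -0.64 to 0.25).

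The BMP pathway had 5 rises among 23 measured members and no fall, but only BMPER was steadily called, and the count dropped to 1 without day 0 replicate 1 or day 0 replicate 4 and to 2 in fits lacking replicate 2 or 3 of day 0 or replicate 3 or 4 of day 5. BMPER, a secreted BMP modulator, was at 5.10, 5.17, 4.78 and 5.13 in undifferentiated cells and at 9.92, 9.28, 10.05 and 9.57 at day 5 (4.66 ± 0.55, limma adjusted p = 0.000664). Its day 0 samples lay close together, its day 1 mean was 5.10 and its day 3 mean was 6.66. SMAD5, a transducer of BMP signals, was stable (0.11, 95% confidence interval -0.41 to 0.64).

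In the WNT pathway 7 of 50 measured members rose and 1 fell, with a median of 0.29. There were 10 rises and 2 falls without day 3 replicate 2, and 12 rises and 2 falls without it and day 5 replicate 2 together. Steadily called were the rises of DKK1, FRZB, NOTUM, LGR5 and RSPO3 and the fall of SFRP2. DKK1, FRZB and NOTUM are secreted inhibitors of WNT, RSPO3 is a ligand of LGR5 that strengthens WNT signals, and SFRP2 binds WNT proteins. FRZB went from 6.33, 6.56, 6.86 and 5.40 to 10.70, 10.43, 11.04 and 10.33 (4.34 ± 0.56, limma adjusted p = 0.000802). DKK1 went from 4.34, 3.63, 3.23 and 3.62 to 10.81, 9.94, 9.29 and 9.07 (6.07 ± 0.83, adjusted p = 0.00112). NOTUM rose by 3.35 ± 0.69 (adjusted p = 0.0128) and RSPO3 by 2.40 ± 0.31 (adjusted p = 0.000847); NOTUM and RSPO3 were chosen after their values were seen. SFRP2 moved the other way, from 12.26, 11.66, 11.54 and 11.61 to 9.70, 9.27, 9.72 and 10.06 (-2.08 ± 0.26, adjusted p = 0.000725). Beta-catenin, CTNNB1, was stable (-0.17, 95% confidence interval -0.85 to 0.51), although without day 0 replicate 3 the interval reached -1.06.

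FGF and ERK genes moved in both directions: 4 of 32 measured members rose and 6 fell, with a median of 0.02. Without day 0 replicate 2 the rises dropped to 2 and without day 0 replicate 1 the falls dropped to 3. Leaving out day 3 replicate 2 gave 7 rises and 7 falls, and without it and day 5 replicate 2 together 8 rises and 6 falls. FGF19, an FGF of embryonic epithelia, was at 8.83, 8.68, 8.56 and 8.35 and then at 7.05, 5.55, 5.88 and 6.96 (-2.25 ± 0.41, limma adjusted p = 0.00644). ETV1, an ETS factor induced by FGF signalling, fell by 1.67 on the log2 scale (adjusted p = 0.000847; chosen after its values were seen). DUSP4, a phosphatase that switches off ERK, rose from 7.86, 7.08, 8.14 and 7.38 to 9.54, 10.25, 10.36 and 10.65 (2.59 ± 0.33, adjusted p = 0.0008). Of 20 retinoic acid genes 2 rose and none fell, both steadily called, and 3 rose and 1 fell without day 3 replicate 2 (4 and 2 without day 5 replicate 2 as well). RXRG, a retinoid receptor, was at 5.14, 5.11, 4.53 and 4.84 and then at 9.31, 9.60, 9.45 and 9.03 (4.44 ± 0.55, adjusted p = 0.000709). CYP26A1, which breaks down retinoic acid, rose from between 9.81 and 10.99 to between 12.85 and 13.40 (2.80 ± 0.55, adjusted p = 0.0095). Of 20 Notch genes 1 rose and 2 fell. The rise was lost without any 1 of the compared samples, the falls numbered 1 in fits lacking replicate 1, 2 or 4 of day 0 or replicate 1, 2 or 3 of day 5, and 2 rose and 3 fell without day 3 replicate 2. The fall of HEY2, a Notch target, was steadily called: from 9.22, 8.94, 8.73 and 8.84 to 6.92, 6.11, 7.14 and 7.08 (-2.12 ± 0.31, adjusted p = 0.00156).

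**Figure D2:**
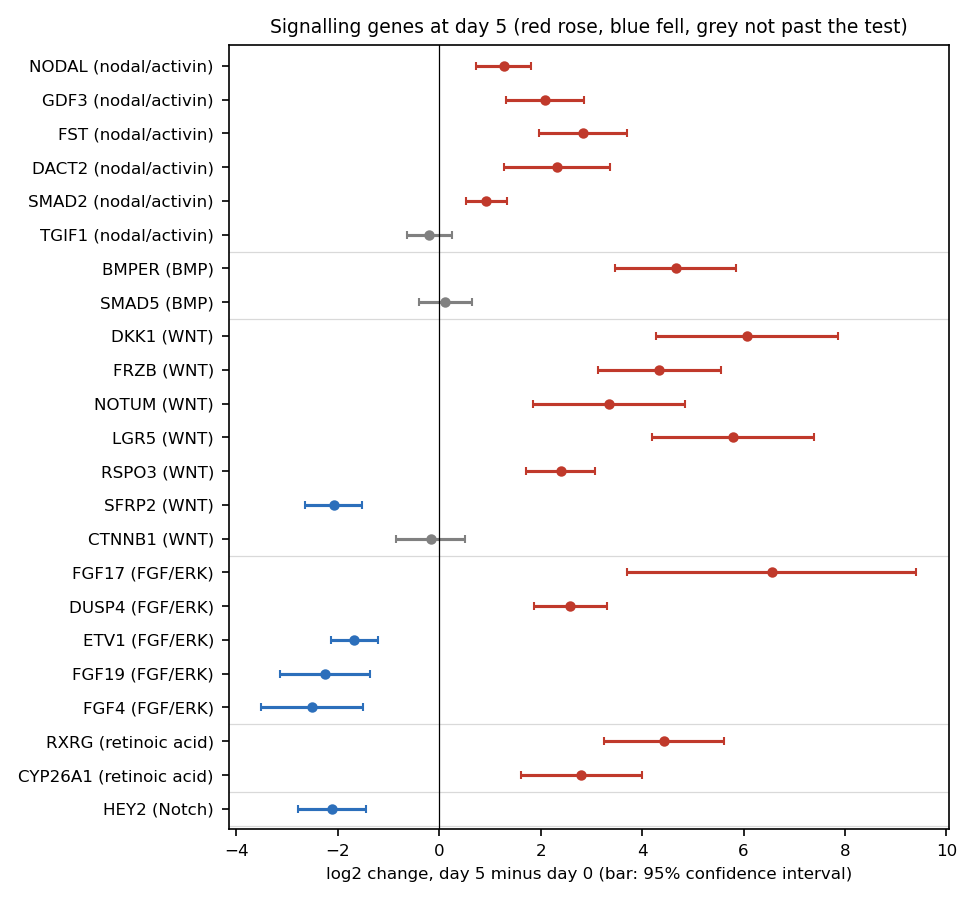
Change from day 0 to day 5 (horizontal axis, log2 units; point: limma estimate, bar: 95% confidence interval) of the signalling genes described, grouped by pathway. The secreted inhibitors DKK1 and FRZB changed by 6.07 and 4.34, SFRP2 by -2.08 and FGF4 by -2.51, while the intervals of SMAD5, TGIF1 and CTNNB1 lie within -1 to 1.

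A small part of the liver and gut secretory list was higher at day 5. Of 28 measured members 4 rose (APOA1, APOA2, C5 and SLC40A1) and none fell, and the same count of 4 came from every fit that left out a sample of day 0 or day 5. The share called was 14.3%, against 5.46% over all probe sets. APOA1 and APOA2 are the main proteins of high-density lipoprotein, C5 is a complement component and SLC40A1 is the iron exporter ferroportin. APOA1 was at 6.71, 6.63, 6.69 and 6.52 at day 0 and at 11.13, 10.94, 11.50 and 10.47 at day 5 (4.37 ± 0.36, limma adjusted p = 0.000174). APOA2 was at 5.90, 6.02, 5.71 and 5.33 and then at 10.52, 11.98, 9.90 and 9.66 (4.78 ± 0.66, adjusted p = 0.0012). SLC40A1 was at 6.17, 5.61, 6.19 and 5.75 and then at 10.37, 11.46, 10.12 and 9.51 (4.44 ± 0.82, adjusted p = 0.00719). For APOA1 the day 0 samples lay close together, and for APOA2 and SLC40A1 day 5 replicate 2 was the highest sample. C5 rose by 3.80 ± 0.34 (adjusted p = 0.00023; named as the remaining rise of the list). Albumin and alpha-fetoprotein, the plasma proteins of hepatocytes and the yolk sac, had overlapping groups and did not pass the test (both named with their values known): ALB was at 4.29 to 4.53 and 4.14 to 5.45 (0.39 ± 0.32, adjusted p = 0.616) and AFP was at 5.46 to 6.24 and 5.05 to 6.48 (-0.14 ± 0.42, adjusted p = 0.906). Of 25 later gut, liver and pancreas factors 2 rose and none fell, both steadily called: TBX3 by 2.74 ± 0.49 (adjusted p = 0.00583) and FOXP2 by 1.56 ± 0.32 (adjusted p = 0.0113). The share called in that list was 8%.

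Some of these genes were still low at day 3. Between day 3 and day 5, 18 probe sets (0.0973% of all) were called, 17 higher and 1 lower at day 5. APOA1 was 3.94 higher than at day 3 (adjusted p = 0.0029), TMEM100 4.05 (adjusted p = 0.027), FOXQ1 3.66 (adjusted p = 0.017) and C5 2.63 (adjusted p = 0.017). CLTRN, an amino acid transporter partner of kidney and pancreas, was 3.78 higher (adjusted p = 0.016) and the adhesion molecule VCAM1 3.31 (adjusted p = 0.016); C5, CLTRN, VCAM1 and FOXQ1 were chosen after their values were seen. Of the 18 calls, 1 (APOA1) held when any 1 of the 7 samples of these days was left out, with an adjusted p of up to 0.0208. Without day 3 replicate 1 the other 5 genes lost theirs, with an adjusted p of 0.0995 for CLTRN, FOXQ1, VCAM1 and C5 and 0.148 for TMEM100. C5 was also lost without day 5 replicate 1 (0.0516) or day 5 replicate 2 (0.0526), and FOXQ1 without day 5 replicate 4 (0.0587). The call of TMEM100 did not survive leaving out day 3 replicate 3 (0.103) or replicate 1 or 2 of day 5 (0.0927 and 0.0666). Against day 0, all 6 were steadily called, with changes from 3.80 (C5 and VCAM1) to 5.56 (TMEM100).

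**Figure D3:**
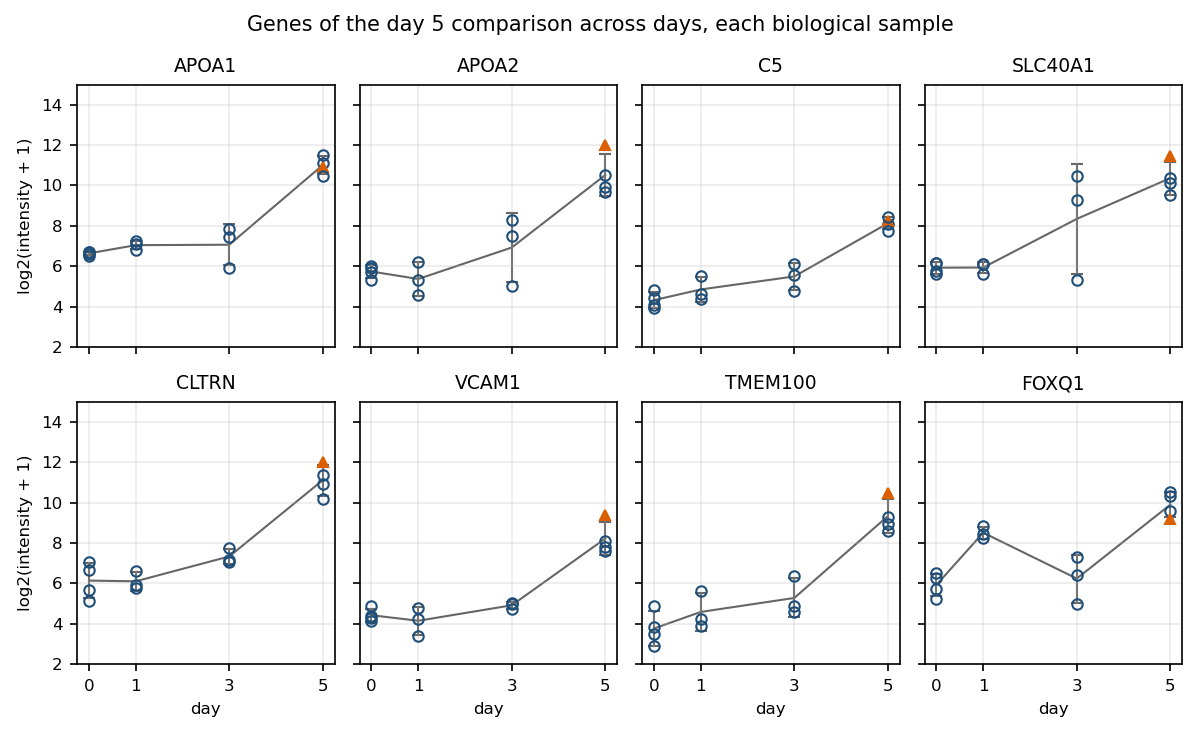
Log2(intensity + 1) of APOA1, APOA2, C5, SLC40A1, CLTRN, VCAM1, TMEM100 and FOXQ1 (vertical axes) by day (horizontal axes); each symbol is a biological sample, the filled triangle is day 5 replicate 2, and the line joins group means with bars of 1 standard deviation. The day 5 samples of APOA1 (10.47 to 11.50) lie above all earlier samples, while FOXQ1 was also high at day 1 (mean 8.51) and back at 6.23 at day 3.

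Of 31 hormones and neuropeptide genes 2 rose steadily, GRP and DIO3. DIO3, the deiodinase that inactivates thyroid hormone, was at 5.35, 5.23, 6.41 and 4.92 and then at 10.86, 10.86, 11.88 and 11.82 (5.87 ± 0.73, limma adjusted p = 0.000709). One further member fell and lost its call without any 1 of the day 0 samples or without day 5 replicate 1 or day 5 replicate 3, and the rises numbered 5 without day 3 replicate 2.

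Of 24 measured pluripotency genes 7 fell and 1 rose, with a median of -0.78, and 22 of the 24 had a change below 0. The falls of PRDM14, TERF1 and SFRP2 and the rise of GDF3 were steadily called. The number of falls dropped to 3 without day 0 replicate 1, day 0 replicate 2, day 0 replicate 4 or day 5 replicate 1, and to 4 without day 0 replicate 3 or day 5 replicate 3. Leaving out day 3 replicate 2 gave 8 falls and 2 rises. PRDM14, a repressor that guards the stem cell state, was at 11.86, 11.57, 11.15 and 11.39 and then at 8.72, 7.98, 9.45 and 9.51 (-2.58 ± 0.40, limma adjusted p = 0.00251). TERF1, a telomere-binding protein abundant in stem cells, went from 12.89, 13.16, 12.42 and 12.52 to 11.11, 11.01, 11.07 and 10.78 (-1.76 ± 0.31, adjusted p = 0.00541; chosen after its values were seen). Of 18 genes of the naive and formative states 6 fell and 1 rose, with a median of -0.70, and the falls numbered 3 without day 0 replicate 1 or day 0 replicate 2. The surface glycoprotein THY1 fell from between 11.65 (replicate 1) and 12.04 (replicate 3) to 9.60, 9.60, 9.76 and 10.13 (-2.15 ± 0.25, adjusted p = 0.000653).

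Among the 12 largest falls of brighter genes that could be named, 8 were steadily called, and only these are described in full. The others, CNMD, IL32, H1-1 and PIPOX, each lost their call in some fits that left out a compared sample. CNMD changed by -4.78 to -3.96 over the settings tried. Its call was lost without day 0 replicate 1 or day 0 replicate 2, with a limma adjusted p of up to 0.0577. TNFRSF8 (CD30, a receptor of stem cells and lymphoid cells) was at 9.33, 9.13, 9.39 and 9.37 at day 0 and at 6.51, 2.90, 6.92 and 6.96 at day 5 (-3.48 ± 0.71, limma adjusted p = 0.0115). FERMT1 (kindlin-1, an activator of integrins in epithelia) was at 9.44, 9.46, 9.33 and 9.60 and then at 6.40, 5.12, 6.47 and 7.08 (-3.19 ± 0.38, adjusted p = 0.000666). Day 5 replicate 2 was the lowest sample for both, far under the others for TNFRSF8, whose change without it was -2.51 (adjusted p = 0.000845). The kinase LCK, best known from T cells, was at 10.05, 9.75, 10.16 and 9.55 and then at 7.08, 7.57, 7.04 and 7.58 (-2.56 ± 0.35, adjusted p = 0.0011). CAMKV, a vesicle-associated relative of CaM kinases, fell by 2.81 on the log2 scale (adjusted p = 0.00144), the nuclear protein TOX by 2.57 (adjusted p = 0.000815), HHLA1 by 2.47 (adjusted p = 0.0049) and TAPBP, the peptide-loading chaperone tapasin, by 2.30 (adjusted p = 0.000935). PRDM14, described above, is the eighth. At day 1 the mean of TOX was 8.17 and that of CAMKV 8.83, and at day 3 they were 8.23 and 6.85.

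Of the largest rises, the sialyltransferase ST8SIA4, which makes polysialic acid, was at 5.06, 5.17, 5.99 and 4.80 and then at 10.83, 11.11, 11.08 and 10.76 (5.69 ± 0.70, limma adjusted p = 0.000709). MYL4, the atrial and embryonic myosin light chain, was at 5.10, 5.82, 8.56 and 6.10 and then at 11.80, 11.44, 12.41 and 12.23 (5.58 ± 0.90, adjusted p = 0.00301). TMEM100, a transmembrane protein known from endothelium, was at 3.82, 2.87, 4.89 and 3.47 and then at 9.30, 10.48, 8.94 and 8.58 (5.56 ± 0.57, adjusted p = 0.000332). ST8SIA4 was alike in the day 5 samples, whereas MYL4 was higher in day 0 replicate 3 than in the other day 0 samples. The long non-coding RNA LINC00479 rose by 5.33 ± 0.99 (adjusted p = 0.00728).

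E-cadherin fell without a matching rise of mesenchymal genes past the test. Of 30 measured genes of the epithelial and mesenchymal switch 5 fell and none rose, while the median change was 0.39 and 19 of the 30 were above 0. Steadily called were CDH1, MARVELD3 and ST14, and the falls numbered 3 without any 1 of the day 0 samples or without day 5 replicate 1 or day 5 replicate 3. Without day 3 replicate 2, 3 members rose as well, and without day 5 replicate 2 too, 6 rose. CDH1 (E-cadherin) was at 12.46, 12.37, 11.93 and 12.53 and then at 10.36, 9.31, 10.63 and 11.18 (-1.95 ± 0.40, limma adjusted p = 0.012). The tight-junction protein MARVELD3 fell by 1.35 on the log2 scale (adjusted p = 0.0118) and the membrane protease ST14, matriptase, by 1.14 (adjusted p = 0.0147; chosen after its values were seen). N-cadherin, CDH2 (named with its values known), was at 11.63 to 12.67 and 11.87 to 13.68 (1.00 ± 0.61, adjusted p = 0.475), ranges that overlap. Without day 3 replicate 2 and day 5 replicate 2 together CDH2 rose by 1.39 (adjusted p = 0.0136). Of 17 claudins none passed the test, with a median of -0.16, though 1 fell without day 5 replicate 1 or day 5 replicate 4, and 1 rose and 1 fell without day 3 replicate 2. CLDN1 had the largest change, 1.66 ± 0.46 (adjusted p = 0.0544) and was called without day 3 replicate 2.

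Matrix genes moved in both directions. Of 32 collagen and matrix genes 4 rose and 3 fell, with a median of 0.68, and 4 rises and 2 falls were steadily called. HAPLN1, which links hyaluronan to proteoglycans, was at 5.71, 6.28, 5.95 and 5.03 and then at 10.42, 12.27, 7.08 and 10.05 (4.21 ± 0.83, limma adjusted p = 0.00964). Its day 5 samples were far apart, with replicate 3 low and replicate 2 high. The change was 5.17 (adjusted p = 0.001) without day 5 replicate 3 and 3.44 (adjusted p = 0.0192) without day 5 replicate 2. MATN3 (matrilin-3) rose from 8.19, 7.75, 8.22 and 8.36 to 10.38, 10.45, 10.41 and 10.04 (2.19 ± 0.28, adjusted p = 0.000802), the proteoglycan SPOCK3 by 2.89 ± 0.44 (adjusted p = 0.00195) and COL9A2 by 1.77 ± 0.32 (adjusted p = 0.00626; chosen after its values were seen). The fibril-associated collagen COL14A1 fell from 8.14, 8.12, 7.26 and 7.46 to 5.15, 5.19, 5.44 and 6.05 (-2.29 ± 0.32, adjusted p = 0.00131). THBS2 (thrombospondin-2) fell by 1.65 on the log2 scale (adjusted p = 0.000545). Of 26 integrin and basement membrane genes none rose and 2 fell, of which FERMT1 was steadily called; the other was lost without any 1 of the compared samples except day 5 replicate 4. One rose in the fit lacking day 3 replicate 2. Without day 3 replicate 2 and day 5 replicate 2 together, 12 matrix genes and 8 integrin and basement membrane genes rose.

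Of 34 measured axon guidance genes, many of which also act outside nerves, 10 rose and 1 fell, with a median of 0.14. The rises numbered 4 without day 0 replicate 3, and 6 without day 0 replicate 4 or day 5 replicate 3, and the fall was lost without any 1 of the compared samples except day 5 replicate 4. Steadily called were SEMA3D, UNC5C, NTN1 and NTN4, the last of these also on the endoderm list. NTN1 was at 4.75, 4.98, 4.47 and 5.23 and then at 7.92, 7.62, 9.43 and 9.30 (3.71 ± 0.73, limma adjusted p = 0.0095). NTN4 was at 4.34, 5.85, 4.72 and 6.60 and then at 8.37, 9.35, 8.96 and 8.74 (3.48 ± 0.66, adjusted p = 0.00816). The secreted semaphorin SEMA3D and the netrin receptor UNC5C rose by 2.49 ± 0.31 (adjusted p = 0.000775) and 2.15 ± 0.40 (adjusted p = 0.00745). Among 25 synaptic adhesion genes 3 rose and 2 fell. The rises numbered 1 in fits lacking replicate 1 or 4 of day 0 or replicate 1 or 3 of day 5, and 5 without day 5 replicate 2 or day 3 replicate 2. SLITRK2 rose from 6.14, 5.68, 6.83 and 6.21 to 9.83, 9.59, 9.41 and 9.39 (3.34 ± 0.34, adjusted p = 0.000332). The related leucine-rich repeat proteins LRRTM1 and LRRTM3 fell by 2.48 and 2.43 on the log2 scale (adjusted p = 0.000725 and 0.00959). Of 29 potassium and calcium channel genes 1 rose and 4 fell, the falls of KCND2 (-2.32 ± 0.34, adjusted p = 0.00149) and KCNS3 (-1.43 ± 0.23, adjusted p = 0.00322) being steadily called; the falls numbered 2 without day 0 replicate 1 or day 0 replicate 2, the rise was lost without day 0 replicate 1, and 2 rose without day 3 replicate 2.

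Lists of markers of other cell types are read against the 5.46% called over all probe sets. Except for blood and endothelium, each had a larger share called: later mesoderm 19.0%, germ cell 18.2%, trophoblast and amnion 16.7%, yolk sac endoderm 3 of 20, and neural and surface ectoderm as well as fibroblast and stroma 10.5%. Of 18 blood and endothelium markers none passed the test (TEK and VWF rose without day 3 replicate 2 and TEK without day 5 replicate 2), with a median of 0.27. The level of their summed intensities was 10.10 to 10.57 at day 0 and 10.70 to 11.19 at day 5 on the log2 scale. TEK and VWF had the largest differences of that list, 1.89 ± 0.67 (limma adjusted p = 0.14) and 1.80 ± 0.60 (adjusted p = 0.113). Of 19 neural and surface ectoderm markers 2 rose, PAX6 and DLX5, and the summed level was 13.11 to 13.68 and then 12.77 to 13.82. PAX6, a homeobox gene of eye, brain and endocrine pancreas, was at 4.70, 4.82, 3.95 and 4.10 and then at 8.16, 9.90, 8.53 and 8.33 (4.34 ± 0.43, adjusted p = 0.000332). DLX5, a homeobox gene of placodes and branchial arches, went from 5.90, 4.90, 4.84 and 4.64 to 8.55, 7.08, 8.17 and 7.93 (2.87 ± 0.37, adjusted p = 0.000802). Both were steadily called, in a list whose median change was 0.20.

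Of 18 trophoblast and amnion markers 3 rose, among them GATA3 and TBX3, which are also on the endoderm or gut lists, and the summed level was 11.20 to 11.78 and then 11.40 to 11.79. Without day 5 replicate 4, 1 fell. Of 20 yolk sac endoderm markers 3 rose, all steadily called: APOA1, LUM and CUBN. In this list 6 rose without day 3 replicate 2 and day 5 replicate 2. CUBN, the endocytic receptor cubilin, rose by 1.43 ± 0.23 (limma adjusted p = 0.00274), while AFP, on the same list, is given above and the summed level was 13.30 to 13.996 and then 13.68 to 14.81. LUM, the matrix proteoglycan lumican, was also the 1 rise among 19 fibroblast and stroma markers, against 1 fall (THY1). It was at 3.82, 3.63, 5.68 and 3.57 and then at 8.66, 10.81, 7.14 and 8.37 (4.57 ± 0.71, adjusted p = 0.00241). The summed level of the fibroblast list was 13.99 to 15.01 and then 13.06 to 15.37. In it 2 rose without day 3 replicate 2 and 2 fell without day 5 replicate 4. Of 21 later mesoderm markers 3 rose and 1 fell, only MYL7 steadily, and the rises numbered 1 without any 1 of the day 0 samples, 5 without day 3 replicate 2 and 6 without day 5 replicate 2 as well. The fall was lost without any 1 of the day 0 samples or without day 5 replicate 1 or day 5 replicate 2. MYL7, the atrial regulatory light chain, went from 7.26, 7.89, 9.91 and 9.16 to 11.33, 11.29, 11.07 and 11.26 (2.68 ± 0.52, adjusted p = 0.00854). Of 11 germ cell markers PRDM1 rose and PRDM14 fell (2 rose without day 3 replicate 2), and of 16 measured HOX genes none passed the test, 2 rising without day 3 replicate 2. What part cells of these types have in the results was not tested.

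The shares called in the lists of growth and the cell cycle lay on both sides of the 5.46% over all probe sets. They were 13.6% for G1 genes, 9.68% for DNA replication and 3.57% for mitosis. For cholesterol synthesis and the respiratory chain they were 0%. Of 31 DNA replication genes 25 had a change below 0, with a median of -0.44, but only 3 fell past the test and none steadily: the falls numbered 0 without day 0 replicate 1 or day 0 replicate 2, and 1 in fits lacking replicate 3 of day 0 or replicate 1 or 2 of day 5. The 28 mitosis genes had a median of -0.39, with 1 fall, which was lost without any 1 of the compared samples except day 0 replicate 3 (2 fell without day 3 replicate 2). The inhibitor CDKN1C (p57) rose from 8.82, 8.57, 8.51 and 8.06 to 10.41, 10.31, 11.29 and 10.41 (2.11 ± 0.34, limma adjusted p = 0.00298), 1 of 2 rises among 22 G1 genes, whose median was 0.03 with 1 fall. The other rise was lost in fits lacking replicate 1, 3 or 4 of day 0 or replicate 2, 3 or 4 of day 5, and the falls numbered 0 in fits lacking replicate 1, 2 or 4 of day 0 or replicate 1 or 2 of day 5 and 2 without day 5 replicate 4. Of 17 cholesterol synthesis genes 1 had a change above 0 and none passed the test, with a median of -0.47 (2 fell without day 3 replicate 2). SQLE, squalene epoxidase, had the largest change of that list, -1.14 ± 0.32 (adjusted p = 0.0595), and was called without day 3 replicate 2. None of 28 respiratory chain genes passed the test, with a median of 0.09, and ATP5F1A, a subunit of ATP synthase, was stable (-0.09, 95% confidence interval -0.46 to 0.29).

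Of 24 glycolysis genes 1 rose and 2 fell, of which the fall of the aldolase ALDOC was steadily called (-1.53 ± 0.25, limma adjusted p = 0.00363). The rise was lost without any 1 of the compared samples except day 5 replicate 4, the other fall in fits lacking replicate 1, 2 or 3 of day 0 or replicate 1 or 3 of day 5, and 2 rose without day 3 replicate 2. Of 25 hypoxia and stress genes 4 rose and none fell (6 rose without day 3 replicate 2 and 7 without day 5 replicate 2 as well). The mitophagy receptor BNIP3 went from 9.48, 9.73, 10.38 and 9.67 to 12.17, 11.83, 11.99 and 11.76 (2.12 ± 0.30, adjusted p = 0.00129), the MYC antagonist MXI1 rose by 1.69 ± 0.25 (adjusted p = 0.00158) and the stress factor ATF3 by 1.50 ± 0.32 (adjusted p = 0.0147), whereas ATF4 was stable (0.13, 95% confidence interval -0.32 to 0.58). Of 24 apoptosis and p53 genes TP53INP1 rose by 2.55 ± 0.27 (adjusted p = 0.000459) and BCL2L11, the death-promoting protein BIM, fell from 9.86, 9.28, 9.39 and 9.41 to 7.82, 8.00, 8.34 and 8.46 (-1.33 ± 0.23, adjusted p = 0.00419). In this list 2 fell without day 3 replicate 2. Of 16 DNA methylation genes 2 fell, of which IDH2 was steadily called (-1.09 ± 0.21, adjusted p = 0.00833); the other was lost in fits lacking replicate 1, 2 or 4 of day 0 or replicate 1 of day 5, and 1 rose without day 3 replicate 2. Among 25 splicing regulators RBM24 and MBNL3, both known from muscle, rose by 2.82 ± 0.54 and 2.47 ± 0.41 (adjusted p = 0.00879 and 0.00365). The 1 fall of that list was lost in fits lacking replicate 1, 2 or 4 of day 0 or replicate 1 or 3 of day 5, and 2 fell without day 3 replicate 2. Of 29 histone modifiers 1 rose, which was lost without any 1 of the compared samples except day 5 replicate 4, and without day 3 replicate 2 there were 2 rises and 2 falls. Of 26 amino acid transporters 2 rose and 1 fell, none of them steadily called. None passed without day 0 replicate 1, and 1 rose in fits lacking replicate 3 or 4 of day 0 or replicate 3 or 4 of day 5. The fall was lost without any 1 of the day 0 samples or day 5 replicate 1, and 2 fell without day 5 replicates 2 or 3. In the fit lacking day 3 replicate 2, 3 rose and 5 fell, and without day 5 replicate 2 as well 5 rose and 4 fell.

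**Figure D4:**
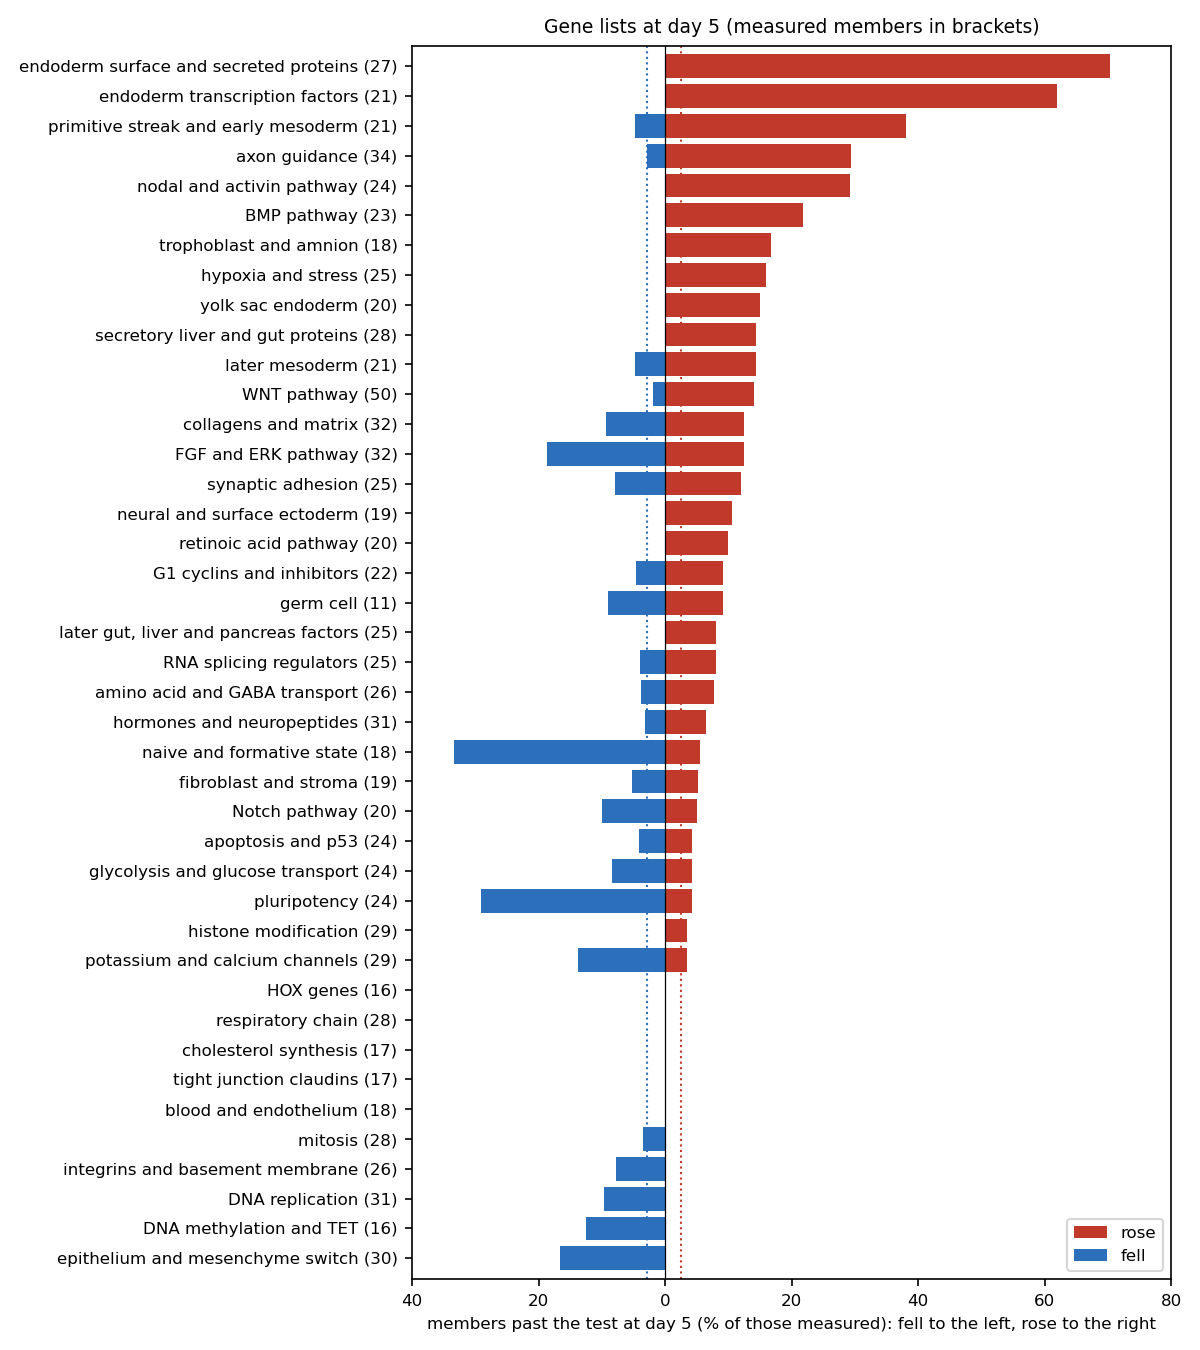
Share of the measured members of each of 41 gene lists that passed the test at day 5 (horizontal axis, percent; red, right: rose; blue, left: fell), with the number measured in brackets and the share of all 18495 probe sets as dotted lines (2.56% rose, 2.89% fell). The endoderm and primitive streak lists reach farthest to the right and the naive, formative and pluripotency lists farthest to the left. All lists were chosen with earlier results of these data known.

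The 4 day 5 samples were not alike, and replicate 2 differed in a way that depended on the gene. It was the lowest day 5 sample for 11 of the 13 endoderm transcription factors that rose, by a median of 1.07 log2 units under the mean of the other day 5 samples. Each of the 13 stayed above the day 0 range, but they were selected by a test that included replicate 2. Of all 1009 called probe sets only 8 had overlapping groups. Over the 21 measured factors replicate 2 was lowest for 14, with a median difference of -0.97. For the matrix lists it was lowest too, in 23 of 26 integrin and basement membrane genes (median difference -1.59) and 22 of 32 collagen and matrix genes (-1.71). In the other direction, it was the highest sample for 22 of 28 respiratory chain genes (median difference 0.97) and for 15 of 28 liver and gut secretory genes (0.60). Over all 18495 probe sets it was lowest for 7216 and highest for 7155, with a median difference of 0. Over the 474 probe sets that rose it was lowest for 148 and highest for 210, and over the 535 that fell it was lowest for 323. The cause of the difference was not tested. Without day 5 replicate 2 the endoderm transcription factors that rose numbered 12, the surface and secreted proteins 19 and the liver and gut secretory genes 4.

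**Figure D5:**
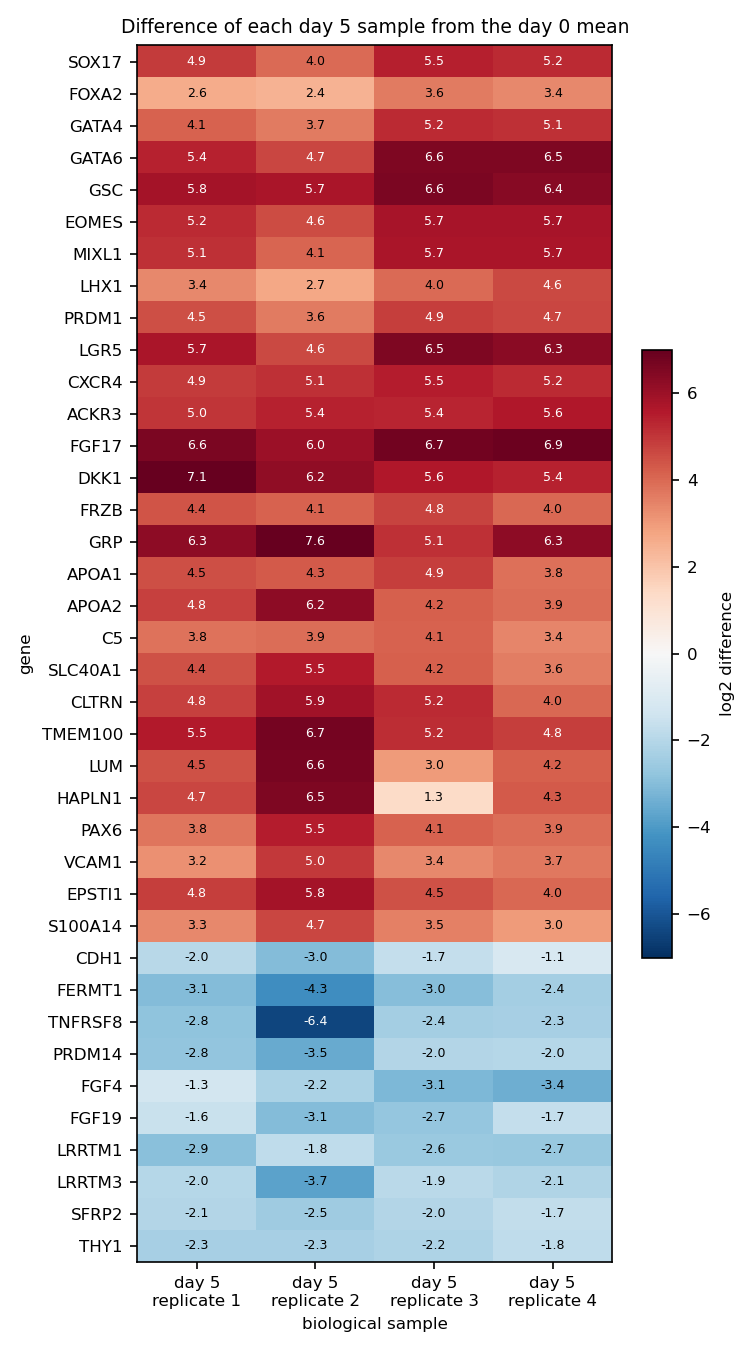
Difference of each day 5 sample (columns) from the day 0 mean for genes of the text (rows), as colour and number in log2 units. Replicate 2 has the smallest rise of the 4 for SOX17, GATA6, MIXL1 and LGR5, the largest for GRP, APOA2, TMEM100, LUM and PAX6, and the deepest fall for TNFRSF8, FERMT1 and CDH1.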

How the data were processed

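RNA of 14 biological samples was hybridised to 16 exon arrays. The deposited values are linear intensity values per probe set as the authors processed them; how background, normalization and summarisation were done is not given in the sources used here, and genome build hg18 is named per the submitters' processing notes. The near-equal medians of the arrays mean that a shift shared by most genes could not be seen. Intensities were turned into log2(intensity + 1), with arrays of the same sample averaged. All 18495 probe sets were fitted in limma 3.58.1 (R 4.3.3) with 1 term per day, moderated variances and Benjamini-Hochberg adjustment over all probe sets. The fit was run on simulated data that gave each probe set the same spread on every day. That simulation held neither the larger spread of day 5 nor samples that stand apart, so it does not show how the test behaves with them. Intervals are at 95%. Leave-one-out fits, other scalings, filters and weights were tried as alternatives.

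A probe set was given a gene name where the platform annotation lists 1 symbol (14577 probe sets); those with several (2849) or none (1069) were not named, and 14271 genes were read from their brightest probe set. A rule gave 197 genes that could be named. It took the 5 markers and the 12 largest rises and 12 largest falls with a higher mean of at least 9. For each list it took up to 3 called members per direction, or the 2 largest differences where none passed. Up to 2 stable members per list were added. Not all of the 197 are named, and called ones that lost their call when 1 sample was left out were mostly left unnamed. Genes from outside the rule are marked as chosen with their values known. The comparison, its markers and the 41 gene lists were chosen with earlier results of these data known. Of 1067 listed genes 893 were measured, 79 had no probe set and 95 share theirs with other symbols. Promoters are from RefSeq (GRCh38.p14), matched by symbol for 11418 of the measured genes.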

Additional observations from a re-analysis of the deposited data

Results flagged for a closer look

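In 14 of 224 groups of 4 samples (112 genes at day 0 and at day 5), 1 sample lay farther from the others than Dixon's 95% limit allows, a limit that chance alone passes in about 1 of 20 groups. Of these samples 4 were day 5 replicate 2, the lowest of its group each time. It was at 2.90 for TNFRSF8 (others 6.51 to 6.96), 3.30 for LRRTM3 (others 4.95 to 5.13), 12.63 for CTNNB1 (others 13.30 to 13.34) and 9.67 for SQLE (others 10.91 to 11.09). In the other day 5 samples, replicate 1 was low for KCND2 (5.41, others 6.55 to 6.76) and high for ATP5F1A (13.75, others 13.40 to 13.45), and replicate 3 was high for CDKN1C (11.29, others 10.31 to 10.41). Replicate 4 was low for MANEA (11.11, others 11.42 to 11.48) and MATN3 (10.04, others 10.38 to 10.45).

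At day 0, replicate 3 was high for LUM (5.68, others 3.57 to 3.82) and EPSTI1 (5.90, others 5.04 to 5.10) and low for CTNNB1 (12.81, others 13.41 to 13.52). Replicate 1 was low for THY1 (11.65, others 11.99 to 12.04) and replicate 2 for ALB (4.29, others 4.51 to 4.53). The causes were not tested.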

How the results depend on the processing

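Of the 99 named genes called in the fit with all samples, 97 to 99 kept their call when 1 sample of day 0 or day 5 was left out, and 98 or 99 under the other settings, except that leaving out the dimmest 25% of probe sets removed 8 of them from the fit. CNMD, IL32, H1-1 and PIPOX, named above for their lost calls, are not counted here. Among the 99 the calls lost were those of FOXA1 and CER1. Such retention follows largely from the choice of genes, since most of those named were picked among the steadily called. Over all probe sets 484 of the 1009 calls were steady in that sense. The sign turned for ALB with array weights (-0.037), for AFP without day 5 replicate 3 (0.080, within a range from -0.399 over the leave-outs) and for CTNNB1 without day 5 replicate 2 (0.005), none of them past the test. The total count of calls was less steady. Leaving out 1 sample of day 0 or day 5 gave 549 to 892 calls, 289 to 416 rises and 249 to 495 falls. Without day 3 replicate 2 there were 1614 calls (753 rises and 861 falls), and without it and day 5 replicate 2 together 1835 (912 and 923). Array weights gave 3000 calls (1330 and 1670) and an adjusted p under 0.01 left 412 (227 and 185). For day 5 against day 1 the count went from 616 to 1130 without day 3 replicate 2, and for day 5 against day 3 from 18 to 29. The other leave-outs of that comparison, added after seeing the data, gave 1 to 19. The causes were not tested.

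With the replicate number as a block there were 1448 calls (639 rises and 809 falls), of which 990 were called without the block, and all 99 named calls were kept. Deviations of same-numbered samples of the 2 groups correlated at -0.063, 0.118, -0.284 and 0.512 for replicates 1 to 4. Those of samples with different numbers correlated at -0.422 to 0.380. Whether the numbers pair the samples was not tested. An array gives no depth. No detection call was used here, so how far dim values, such as those of GRP at day 0, lie above background was not tested.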
